A study of Mus musculus with 3 samples.

Results

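Oocytes of unexposed female ICR mice, an outbred strain, were compared with oocytes of the group labelled as having had a low exposure to PCB118. Each group was 1 library, so 2 of the 3 libraries of the study entered the comparison, and the library of the high exposure is given beside them for reference. All 3 groups were of females aged 8 weeks, and their total RNA was extracted with Trizol. PCB118 is a pentachlorobiphenyl of the dioxin-like kind, which has chlorine on both rings and can bind the aryl hydrocarbon receptor. The title of the study places the exposure in pregnancy and the readout in oocytes of the offspring. The amounts given, the stage of the oocytes, the number of oocytes or mothers behind a library and any vehicle are not in the sources used here. A gene was compared when its values averaged at least 5 FPKM (fragments scaled to transcript length and to library size) over the control and low-dose libraries, which held for 6268 of 23376 gene names. The difference of a gene was log2((low + 1)/(control + 1)) in FPKM, and a gene is called higher or lower here when that difference was at least 1 in size, a 2-fold step. With 1 library per group no difference has a replicate check, no test was possible, and every statement below describes these libraries.

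A growing mouse oocyte transcribes and stores messenger RNA for later use. Transcription stops near the end of growth, and meiotic maturation and the first cleavage then run on stored messages, which are translated, deadenylated and degraded in turn. An abundance of a transcript in an oocyte can therefore differ through its synthesis in the growing cell or through its decay in the maturing one. Dioxin-like compounds act through the aryl hydrocarbon receptor, a ligand-activated transcription factor that pairs with ARNT, binds DNA at xenobiotic response elements and is best known for inducing cytochrome P450 genes such as Cyp1a1.

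The libraries of control, low and high dose summed to 377415, 424756 and 393864 FPKM, and their depth, estimated from the steps between low values, was about 34700000, 27900000 and 31500000 reads. At these depths 5 FPKM over a transcript of 1 kilobase was worth about 173, 139 and 157 reads. Loci without a gene name took 15.4, 21.9 and 19.3% of the summed FPKM. Of the 20 oocyte markers listed, 19 had a row and all 19 were at 1 FPKM or more in every library, with sums of 15010, 11518 and 12712 FPKM. Granulosa and cumulus markers summed to 25.3, 28.2 and 24.8 FPKM, and 3, 4 and 4 of the 14 with a row were at 1 FPKM or more. The most abundant were Nr5a2, at 17.0, 13.2 and 10.6 FPKM, and Fshr, at 5.61, 9.95 and 9.05 FPKM. Cyp19a1 was at 1.42, 1.32 and 2.22 FPKM and Inha at 0.38, 2.55 and 1.03 FPKM. Amh and Foxl2 had no row, Has2 was at 0 in the control and low-dose libraries and Gja1 was near 0 in both. Theca and stroma markers summed to 4.03, 12.02 and 2.75 FPKM. Most of this was Cyp11a1, a steroid enzyme, at 3.55, 7.51 and 0.44 FPKM, and Lhcgr, the luteinising hormone receptor, at 0.09, 3.86 and 1.61 FPKM. Endothelium markers summed to 6.43, 11.74 and 7.58 FPKM and leukocyte markers to 5.69, 8.13 and 5.57 FPKM. The sums of granulosa, theca, endothelium and leukocyte markers were thus each highest in the low-dose library, though single markers went either way. The part of these other cells in the differences was not tested, and in bulk samples fewer cells of a type and less RNA per cell cannot be told apart.

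Of the 6268 genes compared, 969 (15.5%) were higher in the low-dose library and 365 (5.82%) were lower, together 21.3%. The median difference was 0.10 on the log2 scale, and the middle 90% of genes lay between -1.08 and 2.04. A trimmed-mean scaling of the libraries, by a factor of 1.08, moved the median to -0.01 and the counts to 855 higher and 434 lower, so a class of genes is read below against the median of all genes and not against 0. At the threshold itself 209 genes lay within 0.1 of the upper bound and 134 within 0.1 of the lower one. Among the called genes, 36 of the higher ones were at 0 in the control library and 22 of the lower ones in the low-dose library. A row absent from a library counted as 0 here. A gene below 5 FPKM in 1 of the 2 libraries entered only through a higher value in the other, so its direction was fixed by the minimum. With a 4-fold step in place of the 2-fold one, 5.25% of genes were higher and 1.77% lower, together 7.02%.

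The excess of higher genes went with how a gene was represented in the tables. Of the genes compared, 2350 had more than 1 row, since the assembled loci of a gene were summed under its name. A stricter set of 3163 protein-coding genes is called single-row genes below. Each had exactly 1 row with the same identifier in each table, more than 1 exon and values above 0 in both libraries. The set includes 93 genes with predicted names (Gm or Rik), of which 8 were higher and 8 lower. The highest and lowest single-row genes ranked below leave such names out. In this set 195 (6.17%) were higher and 153 (4.84%) lower, together 11%, with a median of -0.02. The other 3105 genes had 774 (24.9%) higher and 212 (6.83%) lower, together 31.8%, with a median of 0.27.

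**Figure D1:**
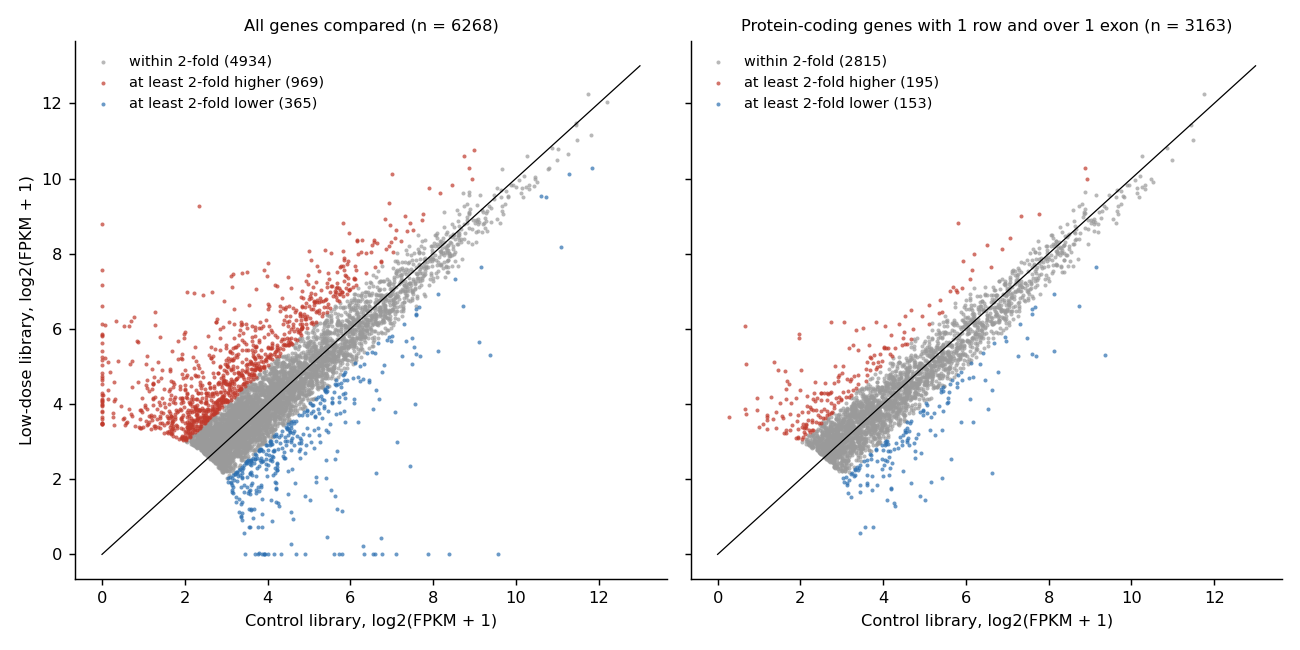
Level of each gene in the low-dose library against the control library, both as log2(FPKM + 1), for the 6268 genes compared (left) and the 3163 single-row genes (right); 1 point is 1 gene, and the line marks equal values. Of all genes 969 lie past the 2-fold step above the line and 365 past it below, while the single-row genes hold 195 and 153. Genes at 0 in a library, or without a row in it, lie along the left or lower edge.

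Among single-row genes the highest was Ccdc6, a coiled-coil protein best known as a fusion partner of the RET kinase in thyroid tumours. Its values were 0.57, 66.9 and 0.59 FPKM, always in the order control, low dose and high dose, a difference of 5.44, so that it was high in the low-dose library and near 0 in both others. By the depth estimate this was about 109 reads in the control library against 10276 in the low-dose one. Next came Triap1, a small intermembrane protein of mitochondria that takes part in lipid transfer and is induced by p53. Its values of 0.60, 32.8 and 57.9 FPKM (difference 4.40) put both exposed libraries above the control. Pald1, a phosphatase-like protein of vessels, was at 2.94, 57.5 and 3.19 FPKM (3.89). Dpm3, which anchors the enzyme that makes dolichol-phosphate mannose for glycosylation, was at 1.56, 33.8 and 0.40 FPKM (3.77). For these, as for Ccdc6, the low-dose library stood alone.

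Others of the 15 highest single-row genes had the high-dose library near the low-dose one. Coq8b, a mitochondrial kinase-like protein needed for coenzyme Q, was at 5.73, 72.2 and 64.4 FPKM (3.44). Polr2l, a small subunit shared by the RNA polymerases, was the most abundant of them, at 55.3, 452 and 388 FPKM (3.01). Pik3cd, a catalytic subunit of phosphoinositide 3-kinase, was at 2.18, 23.5 and 23.1 FPKM (2.94). The same order, with control lowest by far, held for Mzt1, a component of gamma-tubulin ring complexes, at 1.43, 17.1 and 15.1 FPKM (2.90). Bmp6, a ligand of the BMP family, was at 0.94, 17.0 and 3.62 FPKM (3.21), with the high-dose library between the others. The others described here were Elk4, an ETS transcription factor of the serum response (1.75, 28.9 and 1.78 FPKM), Slc39a1, a zinc importer (0.58, 13.6 and 9.09 FPKM), Fam117b, Fam149a and Higd1c, with differences from 3.03 to 3.44.

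Of the lowest single-row genes the first was Cdc5l, a core protein of the spliceosome that acts in pre-mRNA splicing and in the entry to mitosis. It was at 97.9, 3.51 and 6.81 FPKM, a difference of -4.46, so that the control library was far above both exposed libraries. Gdf9, the ligand by which the oocyte drives growth of the granulosa cells around it, was at 661, 38.5 and 193 FPKM (-4.06). With about 41076 estimated reads in the control library and 1925 in the low-dose one, it was among the most deeply covered of the called genes. The gene lies on chromosome 11 at 53431023 to 53437904 of mm10, on the plus strand, with 2 exons. Hes6, an inhibitor of Hes1-type repressors, was at 31.5, 1.73 and 16 FPKM (-3.57). Smim20, a small protein needed for assembly of cytochrome c oxidase, was at 41.6, 3.11 and 4.10 FPKM (-3.37). For Hes6 the high-dose value lay between the others, whereas for Smim20 it lay beside the low-dose value.

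In a second pattern among the lowest single-row genes, the low-dose library alone was low. Tob2, an antiproliferative protein that brings the CCR4-NOT deadenylase to messages, was at 12.5, 0.66 and 22.7 FPKM (-3.03). Dcaf12, a substrate receptor of a cullin ubiquitin ligase, was at 18.5, 1.43 and 19.5 FPKM, and Ccdc115, a factor of V-ATPase assembly, at 34.9, 2.78 and 37.9 FPKM (-3.25). For Scand1, at 28.8, 1.96 and 24.7 FPKM, and AA792892, at 91.9, 13.5 and 70.9 FPKM, the high-dose value also lay nearer the control. The rest had both exposed libraries well below the control. Rab9, a GTPase of traffic from endosomes to the Golgi, was at 18.2, 1.56 and 1.55 FPKM (-2.91). Map1lc3a, an LC3 protein of autophagosome membranes, was at 24.3, 2.74 and 3.77 FPKM (-2.76). Naa11, a catalytic subunit of an N-terminal acetyltransferase, was at 10.9, 0.65 and 0.44 FPKM (-2.85). Tuba1c, an alpha-tubulin, was at 48.8, 4.83 and 1.00 FPKM (-3.10), and is uncertain because near-identical alpha-tubulin genes can share its reads. Scand1, Acss1, Smagp and the gene AA792892 had differences from -3.33 to -2.68. The 15th and 16th genes of this order differed by little, -2.68 and -2.66, as did those of the highest ones, both at 2.90.

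**Figure D2:**
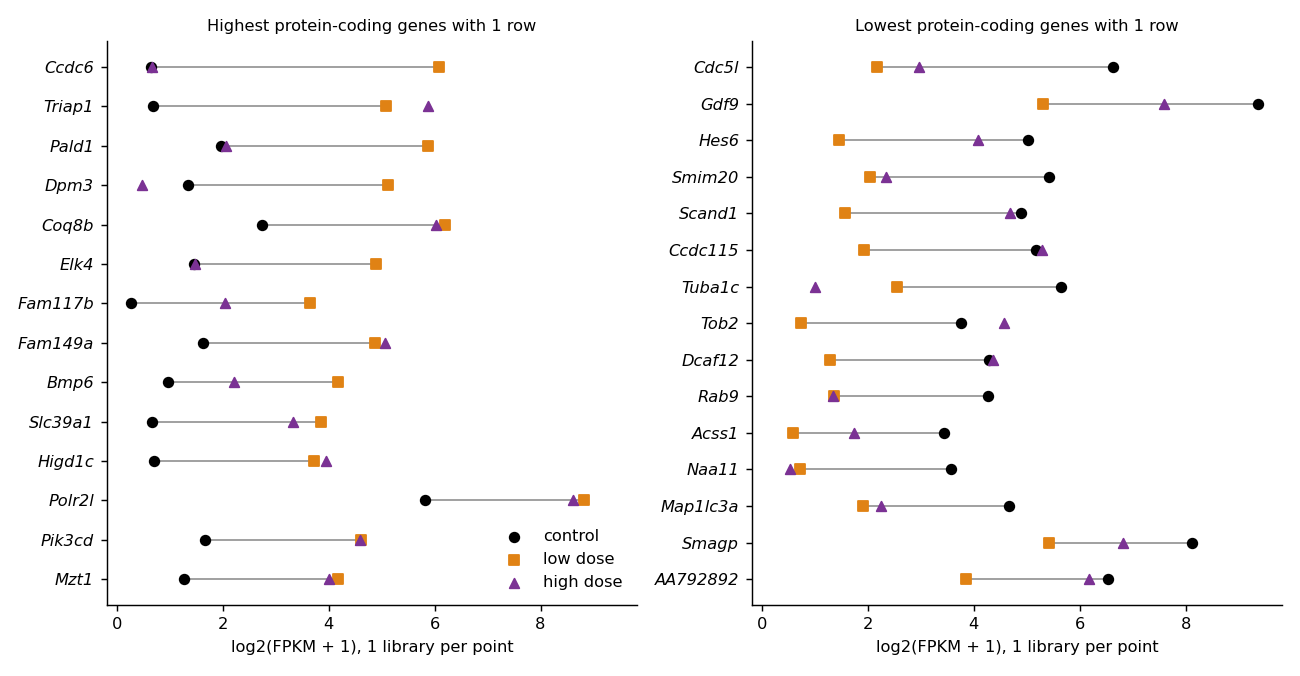
Level of the highest (left, 1 of the 15 not shown) and 15 lowest (right) single-row genes in the 3 libraries, as log2(FPKM + 1); circles are the control, squares the low dose and triangles the high dose, 1 library each, and the grey line joins control and low dose. The triangle lies near the control for Ccdc6, Pald1, Elk4, Dcaf12 and Ccdc115 and near the low dose for Polr2l, Pik3cd, Mzt1, Rab9 and Smim20.

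The promoters of 4 of these genes are shown because the receptor of dioxin-like compounds acts on DNA: Cdc5l and Hes6 were among the 3 lowest single-row genes, and Ccdc6 and Triap1 were the 2 highest. Each run is the 250 bases before the start of the gene, 5′ to 3′ on the strand of the gene, from RefSeq on GRCm38.p6, and Gdf9 is named only. Capitals mark GCGTG, the core letters of the xenobiotic response element, or CACGC, the same letters on the other strand. The windows are chr17:45433708-45433957 on the minus strand for Cdc5l, chr1:91414039-91414288 on the minus strand for Hes6, chr10:70096871-70097120 on the plus strand for Ccdc6 and chr5:115340981-115341230 on the plus strand for Triap1.
Cdc5l: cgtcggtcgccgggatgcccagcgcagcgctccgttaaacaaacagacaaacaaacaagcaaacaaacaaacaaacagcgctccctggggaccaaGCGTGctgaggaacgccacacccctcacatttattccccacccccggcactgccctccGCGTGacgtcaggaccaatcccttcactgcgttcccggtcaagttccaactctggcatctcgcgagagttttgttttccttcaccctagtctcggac
Hes6: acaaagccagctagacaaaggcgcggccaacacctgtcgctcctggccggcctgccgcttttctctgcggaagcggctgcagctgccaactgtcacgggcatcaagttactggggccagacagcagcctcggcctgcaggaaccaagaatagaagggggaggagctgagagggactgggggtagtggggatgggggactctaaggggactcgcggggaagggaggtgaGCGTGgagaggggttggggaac
Ccdc6: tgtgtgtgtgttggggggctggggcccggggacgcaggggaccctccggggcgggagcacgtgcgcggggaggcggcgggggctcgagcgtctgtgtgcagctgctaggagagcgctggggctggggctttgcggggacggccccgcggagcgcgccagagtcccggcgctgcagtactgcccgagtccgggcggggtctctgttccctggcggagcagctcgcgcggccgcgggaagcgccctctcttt
Triap1: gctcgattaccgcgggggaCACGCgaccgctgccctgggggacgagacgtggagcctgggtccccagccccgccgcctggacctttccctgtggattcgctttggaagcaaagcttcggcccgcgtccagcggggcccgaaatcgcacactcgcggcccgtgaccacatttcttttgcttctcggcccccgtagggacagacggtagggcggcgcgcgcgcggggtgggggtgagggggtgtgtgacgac
The core occurred 2 times in the Cdc5l window, once each in those of Hes6 and Triap1, and had no match in that of Ccdc6. Over the whole table of promoters, 28.2% of 27025 windows of this length held GCGTG on either strand, and the share was 44.6% of the 4359 genes compared that had a window. Of single-row genes it was 49.0% of the 155 higher ones with a window, 56.7% of the 120 lower ones and 45.5% of the 2261 others. With the flanking letters of the fuller element, TNGCGTG, which contains the core, the shares were 9.68, 5.83 and 6.72%. The E-box CANNTG, which was searched on both strands for comparison and can share end letters with the other motifs, was in 52.3, 60.8 and 56.1%. These windows also differed in CG content, with a median of 19, 15 and 16 CG dinucleotides. A match is a description of letters and not a site, and a window without a match says only that the letters are not in it.

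Genes of the receptor pathway itself were mostly low. Ahr, the receptor, was at 2.21, 3.86 and 5.85 FPKM and Arnt, its partner, at 0.75, 0.48 and 3.02 FPKM, both below the minimum for comparison. The classical targets Cyp1b1 and Ahrr, which encode a cytochrome P450 and the repressor of the receptor, were at 0.38 FPKM or less in every library, and Cyp1a1 had no row among those used here. Tiparp, a target that encodes a poly-ADP-ribose polymerase, was abundant and nearly level at 114, 113 and 122 FPKM. Of 29 genes of the antioxidant and glutathione list, whose members detoxify peroxides and electrophiles, 0 were higher and 2 were lower, with a median of -0.25 beside -0.19 expected from the length of their transcripts. The lower ones were Glrx5, a mitochondrial glutaredoxin of iron-sulphur cluster assembly (78.0, 24.4 and 13.2 FPKM), and Gstp1, a glutathione transferase (57.6, 27.8 and 34.9 FPKM).

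In absolute FPKM, 3 of the 10 largest gains belonged to small mitochondrial proteins. Ndufa2, an accessory subunit of complex I of the respiratory chain, was at 468, 1243 and 1118 FPKM (1.41). Uqcr11, a subunit of complex III, was at 488, 1006 and 853 FPKM (1.04). Slirp, an RNA-binding protein that stabilises mitochondrial messages, was at 289, 781 and 546 FPKM (1.43) over its 2 rows, both of which were above the control in the low-dose library. Names with several rows also had large gains. Foxn3, a forkhead transcription factor, was at 121, 647 and 316 FPKM over 5 rows. Pcdh15, a cadherin of inner-ear hair cells, was at 128, 1109 and 258 FPKM over 15 rows, of which 1 alone held 105, 1084 and 230 FPKM.

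Of the 10 largest losses in FPKM, H1foo and Gdf9 were on the oocyte marker list. H1foo, the linker histone of the oocyte, was at 2477, 1105 and 1370 FPKM (-1.16). Oser1, a protein of the oxidative stress response, was at 550, 48.9 and 53.4 FPKM (-3.47), with both exposed libraries alike. E330017A01Rik, among the 10 most abundant genes, was at 3681, 1240 and 1429 FPKM (-1.57). Rpl41, a ribosomal protein with many processed copies in the genome, was at 566, 199 and 814 FPKM (-1.50) and is uncertain for that reason. The predicted gene Gm43269 was at 2167, 287 and 2284 FPKM, with the low-dose library alone low. Gm2000 and Gm6863 were at 753 and 336 FPKM in the control library and at 0, or without a row, in both exposed ones.

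Apart from E330017A01Rik, the 10 most abundant genes were within 2-fold of the control. Dppa3, which protects the maternal genome from demethylation in the zygote, was at 4707, 4174 and 5342 FPKM (-0.17). Dppa5a, an RNA-binding protein of oocytes and pluripotent cells, was at 3443, 4870 and 2198 FPKM (0.50), the most positive difference of the 10 most abundant genes. Pttg1, the securin that restrains separase, was at 2797, 2827 and 3134 FPKM (0.02), and Cks2, a subunit of CDK complexes required in meiosis, at 2798, 2728 and 3173 FPKM (-0.04). Ldhb, the lactate dehydrogenase subunit by which oocytes use lactate, was at 3580, 2298 and 2434 FPKM (-0.64) over 3 rows. It carried most of the sum of the glycolysis and pyruvate list, which was 3770, 2449 and 2599 FPKM, and 0 of its 12 compared members were higher or lower.

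Functional classes were made from hand lists and name patterns, and a gene can be in several. In the 63 classes with at least 10 compared genes, 26 medians lay above and 37 below the all-gene median of 0.10. Transcript length also varied between classes, and longer transcripts were higher in general, as described further below. A class median is therefore given beside the median expected from the length of its members ("by length"), taken from 20 bins of equal gene number. With the bin median subtracted gene by gene, 50 of the 63 class medians lay within 0.25 of 0, 6 lay higher and 7 lower. That value can differ from the gap between the medians printed, and was -0.17 for the antioxidant list. The part of length in the class value was not tested. More abundant genes had lower differences, as given further below, and class values were not set beside abundance. Counts of a class stand against the 15.5% higher and 5.82% lower of all genes compared, and many class counts lie near these shares.

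**Figure D3:**
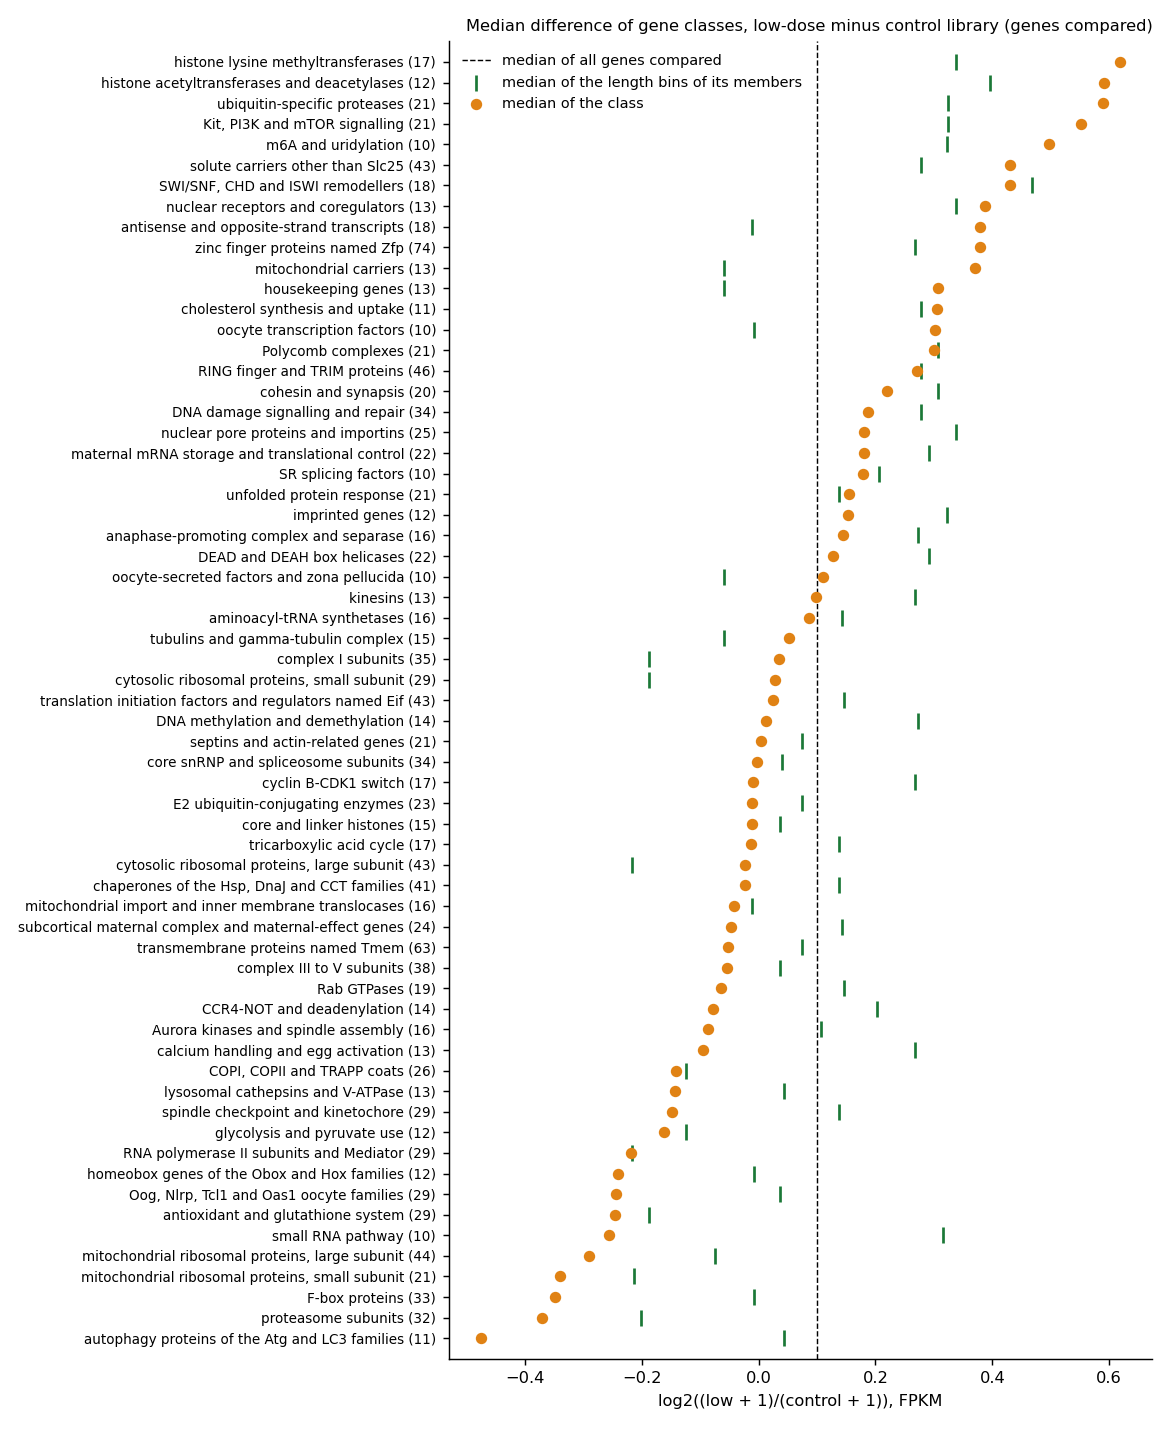
Median difference of each class with at least 10 compared genes, as log2((low + 1)/(control + 1)) of FPKM, with the number of genes in brackets; the dot is the class, the upright mark the median of the length bins of its members and the dashed line the median of all genes, 0.10. Histone lysine methyltransferases lie highest at 0.62 and the autophagy proteins lowest at -0.48, and the length marks range with them in part.

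Secreted oocyte factors and the zona pellucida, the glycoprotein coat that binds sperm, were mixed: of 10 genes 2 were higher, 2 lower, with a median of 0.11 beside -0.06 by length. Zp1, Zp2 and Zp3, the structural proteins of the zona, were at 100, 320 and 712 FPKM in the control library and at 119, 380 and 700 FPKM in the low-dose one, with differences from -0.02 to 0.25. Bmp15, the partner ligand of Gdf9, was at 4.27, 18.7 and 15.8 FPKM (1.90), in the opposite direction from Gdf9. Izumo1r, the receptor on the egg for sperm IZUMO1, was at 65.7, 32.6 and 33.4 FPKM (-0.99), just short of the step. Of 10 oocyte transcription factors 1 was higher and 1 lower. Lhx8, a LIM homeobox factor of primordial follicles, was higher at 20.9, 46.5 and 40.6 FPKM (1.12). Sebox, a homeobox factor stored by the oocyte, was lower at 17.4, 2.42 and 0.59 FPKM (-2.43). Foxo3, which holds primordial follicles dormant, was at 35.4, 61.4 and 67.9 FPKM (0.78).

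Families known mainly from oocytes were low as a group, and unevenly so. Of 29 genes of the Oog, Nlrp, Tcl1, Oas1, Oosp and Omt2 families 0 were higher and 3 lower, with a median of -0.24 beside a length expectation of 0.04. The 3 lower genes were all of the Tcl1 cluster, whose 5 genes ranged from -2.40 to -0.58 and summed to 838, 399 and 1059 FPKM. Tcl1b2, for example, was at 205, 37.9 and 154 FPKM (-2.40). The 3 Oog genes ranged from -0.92 to -0.52 and the 3 Oosp genes from -0.52 to -0.35. In contrast the 11 Nlrp genes, which include components of the subcortical maternal complex, ranged from -0.25 to 0.63 and summed to 832, 975 and 932 FPKM. Homeobox genes of the Obox and related families had 2 of 12 higher and 3 lower, among the latter Obox7 at 192, 83.9 and 108 FPKM (-1.19) and Obox3 at 103, 16.6 and 16.6 FPKM (-2.56), with a class median of -0.24 beside -0.01 by length. Members of these multicopy families share near-identical sequence, and reads could be split between them.

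Among F-box proteins, the substrate receptors of SCF ubiquitin ligases, 4 of 33 were higher and 1 lower, with a median of -0.35 beside -0.01 by length. The division lay between the Fbxw genes numbered 13 to 28, a rodent cluster expressed in oocytes, and the rest. The 14 cluster genes compared ranged from -0.73 to 0.93, with 13 below the all-gene median, 0 past the step and a sum of 8922, 6054 and 7788 FPKM. This division was made after the values were seen. The other 19 had a median of 0.22 and held all 5 called genes. Fbxo5, the Emi1 inhibitor of the anaphase-promoting complex, was at 90.3, 40.9 and 82.8 FPKM (-1.12), with the low-dose library alone low. Fbxo33 was at 1.28, 11.6 and 3.35 FPKM (2.47).

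Among genes that run meiotic division, classes and single genes differed. In the cyclin B and CDK1 switch, which triggers the resumption of meiosis, 3 of 17 genes were higher and 1 was lower. The median was -0.01 beside 0.27 by length. Ccnb1, the main cyclin of the switch, was at 182, 120 and 142 FPKM (-0.60) and Cdk1, its kinase, at 21.5, 17.3 and 16.3 FPKM (-0.30). The lower gene was Cks1b, a subunit of CDK complexes, at 425, 96.5 and 146 FPKM (-2.13). Higher were Cdc25a, an activating phosphatase of CDK1 (15.05, 31.7 and 19.5 FPKM), Cdc14b and Ppp2r2a. For the anaphase-promoting complex 0 of 16 genes were called in either direction, with a median of 0.14 beside 0.27 by length. Of 6 genes listed by hand under the Mos-MAPK pathway and cytostatic factor, 1 was higher and 1 lower, with a median of 0.50 beside 0.01 by length. The pathway holds the mature egg in metaphase, and the lower gene on the list was Fbxo5, the Emi1 gene described above. The higher one was Mos, the kinase that starts the pathway, at 9.36, 178 and 8.57 FPKM (4.11) over 2 rows, with the low-dose library alone high. The 2 single-row genes of this class had a median of 0.09.

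Spindle checkpoint and kinetochore genes, which attach chromosomes to microtubules, had 0 of 29 higher and 2 lower, a median of -0.15 beside 0.14 by length, and 20 genes below the all-gene median. Dsn1, of the Mis12 complex at the kinetochore base, was at 53.7, 20.9 and 19.3 FPKM (-1.32), and Pmf1, of the same complex, at 13.1, 6.03 and 7.34 FPKM (-1.01). Both exposed libraries were below the control for both genes. Bub3, a checkpoint protein, was at 13.6, 6.99 and 9.85 FPKM (-0.87), short of the step. Of 16 genes of Aurora kinases and spindle assembly 0 were called, and the median was -0.09 beside 0.11 by length, with Birc5, the survivin of the passenger complex, at 173, 105 and 128 FPKM (-0.71).

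Of 20 cohesin and synapsis genes 4 were higher and 1 lower, shares near those of all genes, with a median of 0.22 beside 0.31 by length. None of the 9 single-row members was called, and their median was 0.04. Hormad2, a chromosome axis protein of prophase, was at 1.63, 14.7 and 1.25 FPKM (2.58). Msh4 and Msh5, which form a dimer that stabilises crossover intermediates, were at 5.43, 27.2 and 7.07 FPKM (2.13) and at 36.9, 89.2 and 22.04 FPKM (1.25). For these 3 genes the low-dose library stood alone, and each had 2 rows. The row that made Hormad2 higher was at 0, or absent, in the control library. Its other row was at 1.63, 1.16 and 0.83 FPKM. Pds5a, a regulator of cohesin release, was lower at 8.45, 3.55 and 2.22 FPKM (-1.05).

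Of 22 genes of messenger storage and translational control 4 were higher and 2 lower, near the shares of all genes, with a median of 0.18 beside 0.29 by length and -0.03 over the 14 single-row members. The lower ones were Papolg, a poly(A) polymerase, at 10.8, 2.23 and 16.5 FPKM (-1.87), and Eif4enif1, which binds eIF4E and represses translation, at 17.0, 3.96 and 25.7 FPKM (-1.86). Caprin1, a protein of RNA granules, was at 36.7, 184 and 133 FPKM (2.29), and Lsm14a, a P-body protein, at 8.33, 17.9 and 13.5 FPKM (1.021). Cpeb3, of the family that binds the cytoplasmic polyadenylation element, was at 9.94, 28.2 and 17.0 FPKM (1.42). In the m6A and uridylation list 4 of 10 genes were higher and 0 lower, with a median of 0.50 beside 0.32 by length. They included Lin28b, which blocks let-7 maturation, at 2.84, 35.6 and 37.9 FPKM (3.26) over 6 rows, and Wtap, a subunit of the m6A methyltransferase, at 72.2, 253 and 85.3 FPKM (1.79) in 1 row.

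Decay factors differed gene by gene. Of 14 genes of the CCR4-NOT complex and its partners, which shorten poly(A) tails, 2 were higher and 1 lower, with a median of -0.08 beside 0.20 by length. Tob1 was at 2.01, 11.3 and 11.2 FPKM (2.03), in the opposite direction from its paralogue Tob2. Btg4, the adaptor of the complex in maternal message clearance, was at 367, 222 and 267 FPKM (-0.72). Of 9 RNA exosome genes, which degrade RNA from the 3′ end, 0 were called and 8 lay below the all-gene median, with a median of -0.32 beside -0.06 by length. Of 10 small RNA pathway genes 0 were called, with a median of -0.26 beside 0.32 by length, and Gtsf1, a small protein of the piRNA pathway, was at 1279, 908 and 1321 FPKM (-0.49).

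The 3′ end of a message carries signals for these factors, and a simple one was counted. TTTTAT or TTTTAAT, forms of the cytoplasmic polyadenylation element, was within the last 100 bases of the annotated 3′ UTR in 602 of the single-row genes with a UTR that long and not in 2337. Of those with it 8.64% were higher and 4.98% lower, with a median of 0.04, and of those without it 5.95% and 5.05%, with a median of -0.03.

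Cytosolic ribosomal proteins were close to level. Of 72 genes 1 was higher, Rpl9 (3.10, 7.45 and 5.80 FPKM), and 1 lower, Rpl41, and the sums were 12773, 12143 and 12741 FPKM. Mitochondrial ribosomal proteins, which translate the messages of the mitochondrial genome, lay lower. Of 65 genes 2 were higher and 3 lower, 50 lay below the all-gene median and the sums were 5021, 4312 and 4525 FPKM. The median was -0.29 beside -0.08 by length for the large subunit and -0.34 beside -0.21 for the small one. Mrps30 was at 9.82, 2.14 and 2.56 FPKM (-1.78), Mrps18b at 46.0, 15.3 and 34.9 FPKM (-1.53) and Mrps23 at 19.97, 4.94 and 14.1 FPKM (-1.82). Mrpl53, in contrast, was at 5.70, 18.98 and 21.7 FPKM (1.58).

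The respiratory chain showed a few large differences, on a background that was level in complex I. Of 35 complex I subunits 2 were higher, Ndufa1 (159, 516 and 440 FPKM, 1.70) and Ndufa2, and the class sum was 5270 FPKM in the control library and 6422 FPKM in the low-dose one. Without these 2 genes the sums were 4644 and 4662 FPKM. Ndufs7, a core iron-sulphur subunit, was at 69.5, 38.5 and 45.0 FPKM (-0.83). Of 38 subunits of complexes III to V 3 were higher and 2 lower, with a median of -0.05 beside 0.04 by length. The 33 that were not called summed to 6696 FPKM in the control library and 7403 FPKM in the low-dose one. Cox6a1, of cytochrome c oxidase, was at 217, 533 and 195 FPKM (1.29), and Uqcrfs1, the Rieske protein of complex III, at 0.15, 27.6 and 0.60 FPKM (4.64), with the low-dose library alone high for both. Cox8a, also of cytochrome c oxidase, was at 186, 44.5 and 18.8 FPKM (-2.04) over 2 rows. The larger of these was at 164, 0.60 and 0.54 FPKM, and the smaller was above the control at the low dose, at 21.1, 43.9 and 18.3 FPKM.

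Import into mitochondria had single genes at both ends, among 16 with a median of -0.04 beside -0.01 by length. Timm22, the channel of the carrier translocase, was at 6.62, 64.8 and 26.2 FPKM (3.11), and Timm8b, an intermembrane chaperone, at 41.6, 8.92 and 70.4 FPKM (-2.10). Of 13 mitochondrial carriers 3 were higher and 0 lower, with a median of 0.37 beside -0.06 by length, of which Slc25a13, the aspartate and glutamate carrier, was the most abundant at 93.8, 327 and 179 FPKM (1.79). The 6 single-row carriers had a median of -0.26, so the direction of that class turned with the set of genes. In the tricarboxylic acid cycle 0 of 17 genes were higher and 1 lower, Mdh2, the mitochondrial malate dehydrogenase, at 36.8, 12.5 and 13.6 FPKM (-1.48), and the median was -0.01 beside 0.14 by length.

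No proteasome gene was called, yet 28 of 32 lay below the all-gene median. The class median was -0.37 beside -0.20 by length, and -0.39 over the 26 single-row members. By part, 7 of 7 Psmb genes, which encode the beta ring with the catalytic sites, were below the all-gene median and ranged from -0.80 to -0.13. All 6 Psmc genes, the ATPases of the base, ranged from -0.91 to -0.25, and the 12 Psmd genes of the regulatory particle from -0.68 to 0.44. Sums over the class were 4059, 2847 and 3178 FPKM.

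Ubiquitin-specific proteases, which remove ubiquitin, had 7 of 21 higher and 1 lower, with a median of 0.59 beside 0.32 by length. The lower one, Usp50, was the most extreme of the class at 77.6, 0.16 and 68.9 FPKM (-6.08). Usp34 was at 42.2, 136 and 84.0 FPKM (1.67) and Usp29, which is imprinted, at 13.8, 66.3 and 26.7 FPKM (2.19), with the low-dose library highest for both. None of the 9 single-row members of this class was called, and their median was -0.09. Autophagy proteins had the lowest median of the classes with at least 10 compared genes, with 2 of 11 higher, 2 lower and a median of -0.48 beside 0.04 by length. Atg101, of the kinase complex that starts autophagy, was at 22.7, 7.25 and 12.9 FPKM (-1.52), and Atg14, of the lipid kinase complex, at 15.1, 44.6 and 39.2 FPKM (1.499).

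In the unfolded protein response, which relieves stress of the endoplasmic reticulum, 1 of 21 genes was higher and 4 were lower, a share of lower genes above the 5.82% of all genes compared. Ddit3, the stress-induced factor CHOP, was at 57.8, 10.6 and 39.3 FPKM (-2.35). Derl3 and Sdf2l1, which take part in the disposal and folding of secretory proteins, were at 12.3, 2.28 and 3.45 FPKM (-2.02) and at 8.39, 1.87 and 2.28 FPKM (-1.71). Dnajb11, a co-chaperone of the lumen, was at 15.8, 6.70 and 16.9 FPKM (-1.13). All 4 had 1 row. The class median was 0.15, however, beside 0.14 by length, and Hspa5, the main chaperone of the lumen, had a difference of 0.38. The gene that was higher was Derl2, a paralogue of Derl3, at 10.8, 97.8 and 192 FPKM (3.06).

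**Figure D4:**
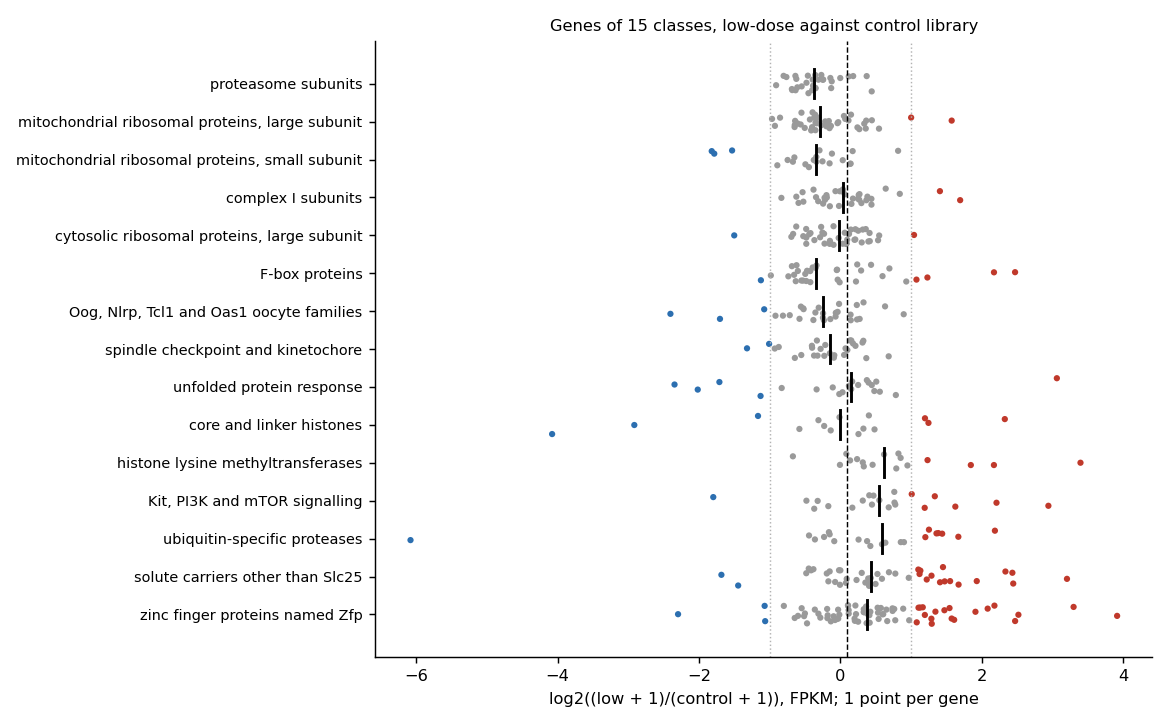
Difference of each gene in 15 classes, as log2((low + 1)/(control + 1)) of FPKM; 1 point is 1 gene, coloured where it is at least 2-fold higher or lower, the short bar is the class median, the dashed line the median of all genes and the dotted lines the 2-fold step. Proteasome subunits lie close together between -0.91 and 0.44, whereas zinc finger genes, solute carriers and histones spread over both steps.

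Of 17 histone lysine methyltransferases 4 were higher and 0 lower, with a median of 0.62 beside 0.34 by length. None of the 7 single-row members was called, and their median was 0.33. Nsd1, which methylates histone H3 at lysine 36, was at 70.6, 322 and 211 FPKM (2.17), and all of its 5 rows were above the control at the low dose. Kmt5a, the methyltransferase of histone H4 lysine 20, was at 2.84, 39.4 and 1.88 FPKM (3.40), with the low-dose library alone high. Polycomb complexes, which repress developmental genes, had 5 of 21 higher and 0 lower, with a median of 0.30 that equalled the 0.31 of their length. Rnf2, the ubiquitin ligase of the first Polycomb complex, was at 2.12, 16.5 and 1.37 FPKM (2.49), and Phf1, an accessory protein of the second, at 2.13, 20.2 and 14.9 FPKM (2.76). SWI/SNF, CHD and ISWI remodellers had 3 of 18 higher, among them Smarcc1 (8.35, 44.5 and 6.32 FPKM, 2.28), and their median of 0.43 lay beside 0.47 by length.

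Histone genes differed in both directions. Of 15 core and linker histones 3 were higher and 3 lower, with a median of -0.01 beside 0.04 by length. H1f0, a replication-independent linker histone, was at 48.5, 1.93 and 33.5 FPKM (-4.08), and H2afj, a histone H2A variant, at 49.9, 5.76 and 60.2 FPKM (-2.91), with the low-dose library alone low. H1fx, another linker histone, was at 3.55, 9.44 and 5.75 FPKM (1.20) and Hist1h2bj at 3.41, 21.1 and 2.22 FPKM (2.33). Of the 15 genes 2 were in the single-row set. Replication-dependent histone messages lack a poly(A) tail, so that their values depend on the RNA selection, which is not given in the sources used here.

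Zinc finger genes named Zfp had 19 of 74 higher and 3 lower, with a median of 0.38 beside 0.27 by length, against 15.5% and 5.82% of all genes. Of the 39 single-row members 4 were higher and 2 lower, with a median of 0.21. Zfp746 was at 1.34, 22.04 and 18.7 FPKM (3.30), Zfp609 at 22.6, 134 and 40.6 FPKM (2.52) and Zfp958 at 37.9, 6.92 and 54.6 FPKM (-2.30). RNA polymerase II subunits and Mediator had 2 of 29 higher and 1 lower, and the median of -0.22 equalled that of their length. Against Polr2l, Polr2e, another subunit common to the polymerases, was lower at 42.8, 13.1 and 17.0 FPKM (-1.63). Nuclear receptors and coregulators had 4 of 13 higher and 0 lower, with a median of 0.39 beside 0.34 by length. They included Nr6a1, an orphan receptor of germ cells, at 3.17, 18.2 and 8.27 FPKM (2.20), and Pgrmc1, a membrane progesterone-binding protein, at 1.52, 11.2 and 0.38 FPKM (2.28). Esr2, an oestrogen receptor, was at 9.76, 7.09 and 29.3 FPKM (-0.41).

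DNA methylation genes had 1 of 14 higher and 2 lower, with a median of 0.01 beside 0.27 by length. The higher one was Uhrf1, at 54.6, 126 and 5.72 FPKM (1.19) in 1 row. The lower ones were Apex1 and Trim28, the latter at 55.5, 18.4 and 75.7 FPKM (-1.54) over 3 rows. Dnmt1, which maintains methylation, was at 62.9, 63.1 and 56.5 FPKM (0.00). Dnmt3l, which assists new methylation in growing oocytes, was at 14.9, 14.3 and 13.6 FPKM (-0.06). These were nearly level in all 3 libraries, whereas Dnmt3a, the enzyme that sets methylation, was at 4.67, 9.40 and 7.41 FPKM (0.87) over 3 rows. Apex1, the endonuclease of base excision repair, was at 26.3, 5.78 and 12.9 FPKM (-2.01). In DNA damage signalling and repair as a whole, 1 of 34 genes was higher and 2 were lower, with a median of 0.19 beside 0.28 by length.

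Of 21 genes of Kit, PI3K and mTOR signalling, which governs the activation and growth of the oocyte, 6 were higher and 1 lower, with a median of 0.55 beside 0.32 by length. Besides Pik3cd, Rragc and Rragd, the GTPases that bring mTOR complex 1 to the lysosome, were at 9.87, 49.3 and 43.4 FPKM (2.21) and at 26.8, 69.1 and 69.5 FPKM (1.34). Rps6kb1, the S6 kinase downstream, was at 8.15, 27.3 and 10.9 FPKM (1.63). Lamtor1, which anchors the Ragulator complex that receives these GTPases, was lower at 26.0, 6.77 and 4.41 FPKM (-1.80). All 7 Wnt and beta-catenin genes compared lay above the all-gene median, with a median of 0.83 beside 0.31 by length, and 1, Gsk3b, was higher at 2.75, 7.57 and 5.98 FPKM (1.19). Ctnnb1, beta-catenin itself, was at 17.6, 26.0 and 27.1 FPKM (0.54).

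Solute carriers other than the mitochondrial ones had 15 of 43 higher and 2 lower, with a median of 0.43 beside 0.28 by length, and 0.41 over the 13 single-row genes. Slc7a6, an amino acid exchanger, was at 9.37, 51.4 and 47.3 FPKM (2.34). Slc6a6, the taurine transporter, was lower at 52.0, 15.5 and 5.35 FPKM (-1.68). Of 21 septins and actin-related genes 2 were higher and 1 lower, with a median of 0.00 beside 0.07 by length. The higher ones, Actb and Actg1, the cytoplasmic actins, were at 48.3, 128 and 106 FPKM (1.39) and at 7.07, 27.3 and 16.2 FPKM (1.81). The lower one, Spire1, an actin nucleator of spindle migration, was at 15.6, 4.69 and 15.5 FPKM (-1.54). Tubb5, a beta-tubulin, was at 26.4, 4.92 and 30.03 FPKM (-2.21), and 3 of 15 genes of its class were lower and 0 higher. Actb is one of the housekeeping genes, of which 3 of 13 were higher, Ppia (40.8, 109 and 104 FPKM) and Eef2 (9.19, 20.4 and 14.6 FPKM) with it.

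Non-coding kinds of transcript varied in how often they were called. Of 239 lincRNAs 18.0% were higher and 6.69% lower, and of 219 processed pseudogenes 19.2% and 12.8%, beside 14.8% and 5.13% of 5248 protein-coding genes. Of 16 snoRNAs 6.25% were higher and 12.5% lower. Of 18 named antisense or opposite-strand transcripts 6 were higher and 2 lower, with a median of 0.38 beside -0.01 by length. Junos, beside the Jun gene, was at 1.40, 11.9 and 10.9 FPKM (2.43) and Mkln1os at 8.11, 53.5 and 31.2 FPKM (2.58). The strand setting is not given in the sources used here, and without strand, reads of a gene and its antisense partner cannot be told apart.

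The differences went with transcript length. Protein-coding genes were divided into quintiles, 5 equal parts, by the length of their longest coding transcript, and in the shortest quintile, with a median of 1045 bases, 6.19% were higher and 8.38% lower. In the longest quintile 24.5% were higher and 4% lower. The median difference went from -0.20 in the shortest quintile through -0.11, 0.16 and 0.31 to 0.41 in the longest. The single-row genes showed the same gradient at a lower level, with 2.53% higher and 7.58% lower in the shortest quintile against 8.85% and 1.74% in the longest, and medians of -0.22, -0.28, -0.04, 0.13 and 0.26. Both the coding part and the 3′ UTR had it: from the shortest to the longest quintile, the medians of single-row genes went from -0.11 to 0.28 by coding length and from -0.18 to 0.15 by 3′ UTR length.

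The number of rows of a gene name went with a further difference. Among names with 1 row 7.94% were higher, against 24.98% of those with 2 rows, 29.9% with 3 and 36.0% with 4 or more, while the shares that were lower were 6.07, 6.40, 5.39 and 2.09%. Within the shortest quintile of protein-coding genes 3.73% of 885 with 1 row were higher and 19.4% of 165 with several. Within the longest quintile the shares were 9.26% of 378 and 33.0% of 672. Single-row genes also differed by base composition, with a median of 0.09 in the quintile of lowest GC and -0.13 in that of highest GC. Both shares of called genes were larger at highest GC, with 4.90 and 8.06% higher and 2.21 and 9.16% lower. By chromosome the share of higher genes ran from 11.3% on chromosomes 9 and 13 to 19.9% on chromosome 4. Abundance went with the difference as well. From the lowest to the highest quintile of mean FPKM, the median went from 0.20 to -0.05 for protein-coding genes. For single-row genes it went from 0.12 to -0.16. The part of length, rows, GC and abundance in the differences of single genes was not tested.

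**Figure D5:**
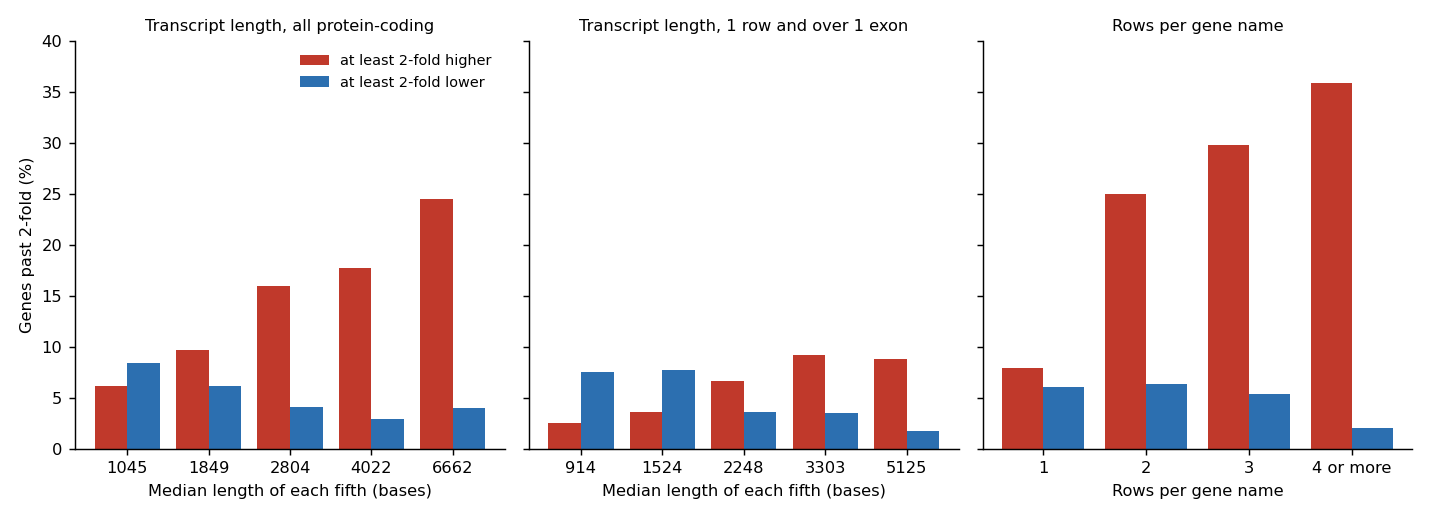
Share of genes at least 2-fold higher or lower in the low-dose library (percent, axis from 0) by quintiles of transcript length for all protein-coding genes (left) and single-row genes (middle), and by the number of rows per gene name over all genes compared (right). The share that is higher goes from 6.19 to 24.5% over length in the left panel and from 7.94 to 36.0% over rows in the right one.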

How the data were processed

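Each library had 1 table of FPKM, as deposited by the authors. HISAT2, StringTie and mm10 are named in the submitters' processing notes; versions, annotation, RNA selection and strand setting were not given in the sources used here. Tables were joined by identifier, 61 identifiers with conflicting names were left out, rows absent from a table were taken as 0, and values were summed per gene name. Unnamed loci were left out of the counts. Genes averaging at least 5 FPKM over control and low dose were compared after adding 1 FPKM. Annotation was matched by name to GENCODE M21 for 96.9% of genes. The named genes were the 15 highest and 15 lowest single-row genes, the 10 largest gains and losses in FPKM, up to 4 genes per class, the 10 most abundant and 22 fixed genes; not all are printed, 2 are not reported here, and further class members were named after their values were seen. The comparison, lists and classes were chosen with earlier results of these data known. Antisense names were limited to non-coding annotation, and the class labels of tubulins and Eif genes widened, after values were seen. Depth was estimated from the steps of low values, assuming whole reads; it bounds counting error only. Python 3.11.15, pandas 2.3.3 and matplotlib 3.10.9 were used. Alternatives were other pseudocounts, filters, scalings, a 4-fold step and length-bin subtraction, and the last of these and the 4-fold step were added after the data were seen.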

Additional observations from a re-analysis of the deposited data

Results flagged for a closer look

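Loci without a gene name, which entered no comparison, carried signal above the control library. They held 21.9% of the summed FPKM in the low-dose library, against 15.4% in the control and 19.3% in the high-dose library. Of the 2263 such loci that averaged at least 5 FPKM over control and low dose, 724 (32.0%) were at least 2-fold higher in the low-dose library and 150 (6.63%) lower, with a median difference of 0.38. Summed over these loci, the FPKM were 47268 for the control, 76856 for the low dose and 59211 for the high dose.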

How the results depend on the processing

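No paired analysis was possible because each group had 1 library, and for the same reason no library could be left out. The median of all genes kept within 0.25 of its value under each alternative run. The count of higher genes, 969, and that of lower genes, 365, moved by over 1.5 times as follows. With a pseudocount of 5 FPKM 237 were lower. With a mean of at least 1 FPKM 1811 were higher and 713 lower, with at least 20 FPKM 416 and 137, and with no filter 2120 and 839. Single-row genes alone gave 195 and 153, and a 4-fold step 329 and 111. Scaling by median ratio gave 865 and 430, within 1.5 times. Over the named genes and alternatives, 3947 comparisons kept direction and side of the 2-fold step, 81 fell short of it and 64 came to pass it. Class medians moved by over 0.25 in 38 cases and by less in 911. The main limit is 1 library per group: spread between oocyte samples is unknown, and depth supports the single-row genes named, with at least 11.97 estimated reads in the lower library, for counting error only.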
